A study of Mus musculus with 9 samples.

Results

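The 38 genes described here encode chaperones, folding enzymes and stress signalling proteins of the endoplasmic reticulum (ER), and their RNA was measured in tumours grown from B16-F10 mouse melanoma cells. The set was chosen by name from the ER folding machinery and the unfolded protein response, after the log2 ratios of Fkbp11, an ER prolyl isomerase, had been seen to differ between the tumour groups. All 38 had a probe that passed the detection filter, out of 13126 named genes and 26871 probes that did. One probe stood for each gene, the brightest over both channels. The Cy5 signal of that probe was well above background on all 9 arrays for all 38 genes, and no spot of a member was saturated.

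Tumours of 3 derivatives of the line were compared, which differ in L-histidine decarboxylase (HDC), the source of histamine. Histamine output is lowered in HDC-A, left as it was in HDC-M and raised in HDC-S. Each group is a single line, so line and histamine output cannot be told apart. Each group had 6 tumours, whose RNA was pooled at random in pairs to 3 pools, and each pool was labelled with Cy5. The Cy3 channel of every array held the same RNA from HDC-M cells grown in culture, and dyes were not swapped. Strain, site and age of the host mice are not stated in the labels used here. All values below are log2 ratios of tumour pool over cultured reference, or differences between such ratios.

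The ER folds proteins that enter it through the Sec61 translocon. BiP (Hspa5), an HSP70 chaperone, binds unfolded chains, calnexin and calreticulin hold glycoproteins, and disulfide and prolyl isomerases speed folding. Proteins that do not fold are moved back to the cytosol and degraded. When unfolded proteins build up, the sensors IRE1 (Ern1), PERK (Eif2ak3) and ATF6 signal to the nucleus: IRE1 splices Xbp1 mRNA, ATF6 is cut to a transcription factor, and PERK slows translation while raising ATF4. Pigment cells send large amounts of glycoprotein, among them the melanosome enzymes, through this machinery.

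The Cy5 signal was well above background at 58.0% to 69.7% of probe spots per array, and the r of log2 ratios over all probes was 0.899 to 0.950 for arrays of the same group and 0.862 to 0.922 for arrays of different groups. The log2 ratio of Hdc itself was 0.24 ± 0.16, 0.38 ± 0.28 and 0.46 ± 0.14 (SD, n = 3) for HDC-A, HDC-M and HDC-S, and none of its differences between groups passed the threshold (limma, adjusted p from 0.463 to 0.864), so its RNA does not check the labels. Of 10 melanocyte markers, the 7 with a kept probe included Tyr, Tyrp1, Dct, Pmel and Mitf, and their summed Cy5 signal was 103000 to 169000 per array. Arrays were scanned on 2 days, with replicates 1 and 2 of each group on the first and replicate 3 of each on the second. The number of arrays, 3 per group, limits the precision of every value.

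Promoter windows show how the ER stress elements are spread over the genes. RefSeq windows of 250 bases before to 50 after the transcription start (build GRCm38.p6) were matched by symbol for 32 of the 38 genes and searched on both strands for 3 motifs. The ER stress response element ERSE (CCAAT, 9 bases of any kind, then CCACG), known as a site of ATF6 with NF-Y, was found in 8 of the 32 genes (25%) and in 37 of 27025 genes with a window (0.137%). ERSE-II (ATTGG, 1 base of any kind, then CCACG) was found in 2 of the 32 (6.25%) and in 12 genes of all (0.0444%). The XBP1 and ATF6 motif UPRE, TGACGTGG, was found in 0 of the 32 and in 193 genes of all (0.714%). A match is a run of letters and not a proven site, and the matches found here did not overlap each other. The matches are given as they read on the gene's strand, so that CGTGG at the left end marks a motif on the opposite strand, and they are shown to compare the spacer between CCAAT and CCACG:
Hspa5, ERSE: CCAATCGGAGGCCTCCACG
Hsp90b1, ERSE: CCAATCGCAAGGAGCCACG
Hsp90b1, ERSE: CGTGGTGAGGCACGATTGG
Dnajc3, ERSE: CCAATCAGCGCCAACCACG
Canx, ERSE: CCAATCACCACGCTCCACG
Calr, ERSE: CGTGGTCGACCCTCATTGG
Pdia6, ERSE: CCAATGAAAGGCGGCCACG
Creld2, ERSE: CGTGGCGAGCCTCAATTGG
Syvn1, ERSE: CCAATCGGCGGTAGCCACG
Dnajb11, ERSE-II: ATTGGCCCACG
Herpud1, ERSE-II: ATTGGGCCACG
Whole windows follow for the pair of genes furthest below culture in the tumours, Herpud1 and Hspa5, and for Canx, which has an ERSE but by its brightest probe was not low in HDC-M tumours. They also follow for Fkbp11, which has 2 windows and no match in either (both are shown, the downstream one second). Capitals mark the motif.
Herpud1, chr8:94386179-94386478, plus strand: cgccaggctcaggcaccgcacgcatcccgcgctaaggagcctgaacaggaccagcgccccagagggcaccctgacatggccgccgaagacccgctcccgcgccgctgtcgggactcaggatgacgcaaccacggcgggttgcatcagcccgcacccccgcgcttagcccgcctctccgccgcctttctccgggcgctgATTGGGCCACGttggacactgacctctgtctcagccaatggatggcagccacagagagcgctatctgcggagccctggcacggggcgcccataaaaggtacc
Hspa5, chr2:34771840-34772139, plus strand: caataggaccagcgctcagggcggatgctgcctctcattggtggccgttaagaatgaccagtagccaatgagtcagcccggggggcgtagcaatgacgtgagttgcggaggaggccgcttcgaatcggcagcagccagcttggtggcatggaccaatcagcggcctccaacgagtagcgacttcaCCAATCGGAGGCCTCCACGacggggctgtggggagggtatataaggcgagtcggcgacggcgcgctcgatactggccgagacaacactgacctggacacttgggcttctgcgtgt
Canx, chr11:50325624-50325923, minus strand: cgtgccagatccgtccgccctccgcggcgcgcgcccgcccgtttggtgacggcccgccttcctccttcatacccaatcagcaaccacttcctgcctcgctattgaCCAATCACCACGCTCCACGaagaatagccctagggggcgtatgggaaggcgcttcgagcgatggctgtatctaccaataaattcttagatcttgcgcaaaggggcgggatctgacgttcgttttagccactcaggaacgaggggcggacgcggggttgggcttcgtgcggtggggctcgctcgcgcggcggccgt
Fkbp11, chr15:98728149-98728448, minus strand: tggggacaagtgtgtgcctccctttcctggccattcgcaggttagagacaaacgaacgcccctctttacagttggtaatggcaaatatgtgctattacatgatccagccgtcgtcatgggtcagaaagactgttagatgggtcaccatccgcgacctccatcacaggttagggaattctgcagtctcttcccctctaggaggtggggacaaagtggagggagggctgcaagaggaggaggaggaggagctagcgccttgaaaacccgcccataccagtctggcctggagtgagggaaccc
Fkbp11, chr15:98727578-98727877, minus strand: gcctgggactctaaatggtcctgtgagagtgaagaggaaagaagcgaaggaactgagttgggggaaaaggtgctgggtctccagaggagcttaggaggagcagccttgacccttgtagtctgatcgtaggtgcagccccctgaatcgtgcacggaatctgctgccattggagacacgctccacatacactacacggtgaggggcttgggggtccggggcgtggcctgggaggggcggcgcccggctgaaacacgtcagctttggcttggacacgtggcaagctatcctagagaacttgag

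The comparison of HDC-M tumours with cultured HDC-M cells asked how the genes stood in a tumour against the same line in a dish. Most members were lower in the tumours: 30 of 38 passed lower, 5 passed higher and 3 did not pass (limma, Benjamini-Hochberg adjusted p under 0.05 over all probes). Over all probes 57.9% passed, 23.9% lower and 34% higher. The median log2 ratio of the members was -0.72, against 0.054 over all probes and -0.0213 over the 3342 probes at least as bright as the lower quartile of the members. At least 2-fold lower were 15 of 38 members (39.5%) and 1.73% of all probes. On every array of every group 28 members (73.7%) had a log2 ratio below 0, as did 23.7% of all probes, and 3 members were above 0 on every array. The mean of HDC-M alone was above 0 for 6 members and for 58.8% of all probes.

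This order rests in part on the scaling of the arrays. Loess, used here, sets both dyes equal at each brightness. With a single shift per array (median centring) the median of all probes was 0.274, that of the bright probes 0.781 and that of the members 0.0528, and 13 of the 30 lower members turned to the other side of 0: Hsp90b1, Dnajb11, Dnajc3, Dnajc10, Xbp1, Fkbp2, Sec61a1, Sec61b, Ssr1, Ssr2, Ssr3, Derl2 and Selenos. Under that scaling 8 members still passed lower (Herpud1, Hspa5, Dnajb9, Creld2, Manf, Derl1, Calr and Atf6) and 13 passed higher, among them Sec61a1, Ssr1, Ssr2, Ssr3 and Fkbp2, which had passed lower, and 21 members lay above 0 and 17 below. In both scalings 32 of 38 members lay below the median of the bright probes. The test also leaves out the spread of the culture, which is 1 RNA, and a dye effect does not cancel in it.

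**Figure D1:**
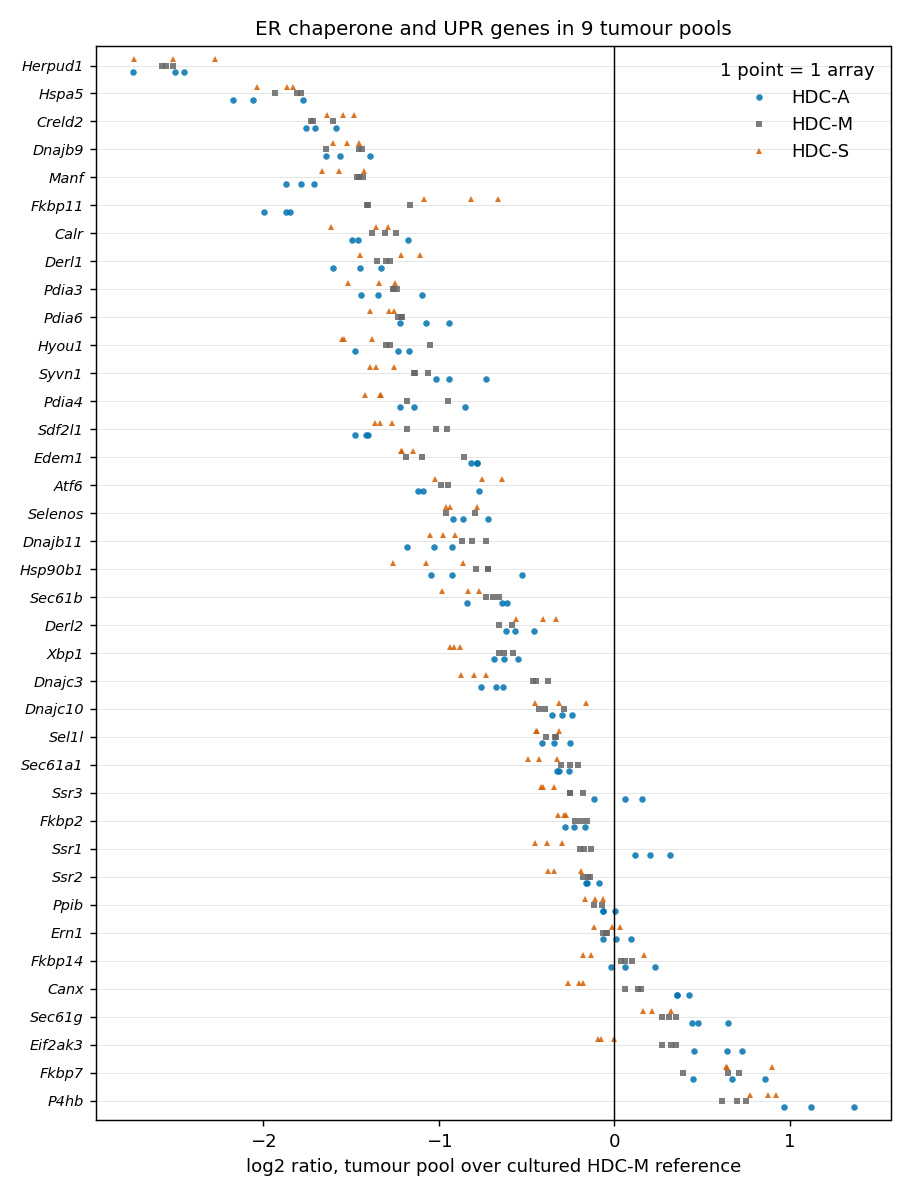
Log2 ratio of tumour pool over cultured HDC-M reference (x axis) for each of the 38 genes (y axis, ordered by the HDC-M mean), 1 point per array, with 3 arrays each of HDC-A, HDC-M and HDC-S. On every array 28 genes lie left of 0 and 3 right of it, from Herpud1 (HDC-M mean -2.55) to P4hb (0.69); with median centring 13 of the genes that passed lower have an HDC-M mean above 0.

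The HSP70 and HSP90 chaperones with their J-domain partners passed lower in all 7 cases, with a median of -0.80, although Hsp90b1, Dnajb11, Dnajc3 and Dnajc10 turned with median centring. Hspa5, the central chaperone of the ER lumen, had log2 ratios of -2.06, -1.77 and -2.17 in HDC-A, -1.81, -1.79 and -1.93 in HDC-M and -2.04, -1.87 and -1.83 in HDC-S pools. Its HDC-M mean of -1.84 ± 0.08 (SD, n = 3) was 3.58-fold below culture (limma, 95% interval -2.01 to -1.68, adjusted p = 9.12e-08). The 3 groups overlapped, and the arrays spanned less than 0.5 around a shared low level. Dnajb9, a J-domain protein that recruits BiP, stood at -1.56, -1.39 and -1.64 in HDC-A, -1.45, -1.64 and -1.44 in HDC-M and -1.60, -1.45 and -1.52 in HDC-S pools, a mean of -1.51 ± 0.11 in HDC-M and again with overlapping groups. Hyou1, a large HSP70 relative that acts with BiP, had an HDC-M mean of -1.21 ± 0.14 and Hsp90b1 (GRP94) one of -0.74 ± 0.04. Dnajc10, which has disulfide reductase activity, was the least shifted of these genes, at -0.37 ± 0.07.

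The small luminal stress factors Creld2, Manf and Sdf2l1, all known to be induced by ER stress, passed lower in 3 of 3 cases. Creld2 read -1.70, -1.58 and -1.76 in HDC-A, -1.72, -1.73 and -1.60 in HDC-M and -1.54, -1.64 and -1.48 in HDC-S pools, so that all 9 pools were at least 2.7-fold below culture and the groups overlapped. Manf, a secreted factor held in the ER by BiP, read -1.71, -1.79 and -1.87 in HDC-A, -1.47, -1.43 and -1.45 in HDC-M and -1.57, -1.66 and -1.43 in HDC-S pools, with every HDC-A pool below every HDC-M pool and every HDC-S pool. Its HDC-M mean was -1.45 ± 0.02 (SD, n = 3), 2.74-fold below culture (limma adjusted p = 5.09e-08). Sdf2l1, which works with BiP and its J-domain partners, had an HDC-M mean of -1.05 ± 0.12.

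Among lectin chaperones and disulfide isomerases, 4 of 6 passed lower and 2 higher. Calr, Pdia3, Pdia6 and Pdia4 lay close together, with HDC-M means of -1.31, -1.25, -1.22 and -1.07, Pdia4 over 2 arrays because 1 spot was marked an outlier. Calreticulin and Pdia3 act as partners on glycoproteins. P4hb, the protein disulfide isomerase that is also the beta subunit of collagen prolyl 4-hydroxylase, was the highest of all members, with 0.96, 1.37 and 1.12 in HDC-A, 0.70, 0.61 and 0.75 in HDC-M and 0.92, 0.88 and 0.77 in HDC-S pools. All 9 pools were above culture, and HDC-A lay above the other groups. Its HDC-M mean of 0.69 ± 0.07 was 1.61-fold above culture (limma adjusted p = 2.47e-05). Canx, the membrane-bound lectin, passed higher by the small margin of 0.11 (limma adjusted p = 0.0299), but its other 2 probes read -0.01 and -0.25. The probe at -0.25 passed lower (limma adjusted p = 0.00531). The other Calr probe gave -0.40, so probes of a gene could differ in this comparison by more than their replicates.

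Of the prolyl isomerases, which turn peptide bonds before proline, Fkbp11 and Fkbp2 passed lower (the latter turned with median centring), Fkbp7 passed higher, and Ppib and Fkbp14 did not pass. Fkbp7 read 0.45, 0.86 and 0.67 in HDC-A, 0.71, 0.64 and 0.39 in HDC-M and 0.90, 0.64 and 0.63 in HDC-S pools, with the groups overlapping, and its HDC-M mean was 0.58 ± 0.17 (1.5-fold above culture, limma adjusted p = 0.00036). Ppib, cyclophilin B, stood at -0.09 ± 0.03 over 2 arrays and Fkbp14 at 0.07 ± 0.03. The other Fkbp14 probe read 0.29 and passed higher (limma adjusted p = 0.01005). That of Ppib read -0.13 and did not pass (limma adjusted p = 0.0676). Fkbp11 was below culture on all 9 arrays, with an HDC-M mean of -1.33 ± 0.14 (2.51-fold, limma adjusted p = 7.79e-07; with median centring -0.53 and adjusted p = 0.0677).

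The translocon genes had a median of -0.20. By the brightest probe, Sec61a1, the channel itself, Sec61b, Ssr1, Ssr2 and Ssr3 passed lower with HDC-M means from -0.70 to -0.16. All 5 turned with median centring. Another Sec61a1 probe read 0.50 over 2 HDC-M arrays and passed higher (limma adjusted p = 0.0015). A further one read -0.14 and did not pass (limma adjusted p = 0.0868). The other Ssr1 probe read -0.08 and did not pass (limma adjusted p = 0.247), whereas the remaining Ssr3 probes passed lower, at -0.43 and -1.11. Sec61g, the small gamma subunit of the channel, passed higher and read 0.44, 0.65 and 0.48 in HDC-A, 0.27, 0.31 and 0.35 in HDC-M and 0.21, 0.32 and 0.16 in HDC-S pools. Every HDC-A pool of Sec61g lay above every HDC-M and HDC-S pool.

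All 7 genes of ER-associated degradation passed lower, with a median of -1.05 (Derl2 and Selenos turned with median centring). Herpud1, a membrane protein that gathers the degradation complex and is a known target of ER stress signalling, was the lowest of all members, with -2.45, -2.50 and -2.74 in HDC-A, -2.52, -2.58 and -2.55 in HDC-M and -2.52, -2.28 and -2.74 in HDC-S pools. Its HDC-M mean was -2.55 ± 0.03 (SD, n = 3), 5.85-fold below culture (limma, 95% interval -2.73 to -2.37, adjusted p = 3.81e-08), and the groups overlapped throughout. The channel protein Derl1 stood at -1.31 ± 0.04, the ubiquitin ligase Syvn1 at -1.11 ± 0.04 and the mannosidase-like Edem1 at -1.05 ± 0.17. The other probe of Syvn1 read 0.02 and those of Edem1 read -0.46 and -0.02 in HDC-M. Sel1l, the adaptor of Syvn1, lay at only -0.36 ± 0.03.

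The sensors did not share a direction. Atf6 had an HDC-M mean of -0.97 ± 0.03 (SD, n = 2) and Xbp1 one of -0.62 ± 0.04 (n = 3), and both passed lower, Xbp1 turning with median centring. Eif2ak3 was above culture by 0.32 (limma adjusted p = 0.000714), and Ern1 did not pass, at -0.05 ± 0.01. Whether the Xbp1 probe separates the spliced from the unspliced mRNA is not given in the sources used here.

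By the brightest probe, 9 of the 10 members with an ERSE or ERSE-II passed lower in HDC-M tumours, Canx being the exception. The 10 had a median of -1.16, and 6 of them were at least 2-fold lower. Of these 9, Hsp90b1, Dnajb11 and Dnajc3 turned with median centring. Among the 22 with a window and no match, 15 passed lower, with a median of -0.36 and 6 at least 2-fold lower. The 6 members without a window had a median of -1.09. These are descriptions of few genes, with no test.

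Genes of other cells were higher in the same comparison. In HDC-M tumours against culture 10 of 10 fibroblast, 10 of 10 keratinocyte, 11 of 12 macrophage, 8 of 10 endothelial and 7 of 10 skeletal muscle markers passed higher and 0 passed lower, as did 4 of 7 melanocyte markers. The summed Cy5 signal in HDC-M pools was 14800 to 20400 for the fibroblast list, 11600 to 30000 for keratinocytes, 12400 to 20000 for macrophages and 1240 to 1740 for the 10 kept B and plasma cell markers. The part of these cells in the lower ratios of the members was not tested. In bulk RNA, fewer cells of a type and less RNA per cell cannot be told apart.

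The PERK and ATF4 arm was listed beside the members to see the third branch of the response. All 13 of its genes passed lower in HDC-M tumours, with a median of -1.53, although Sesn2, Eif2s1 and Nck1 turned with median centring, which left 10 passing lower. Trib3, a pseudokinase induced through ATF4 and CHOP, was furthest below culture, with -4.15, -3.91 and -3.94 in HDC-A, -3.80, -3.93 and -3.70 in HDC-M and -3.30, -2.90 and -3.29 in HDC-S pools. Ddit3 (CHOP), the transcription factor of late ER stress, read -2.82, -2.46 and -2.06 in HDC-A, -2.75, -2.68 and -2.50 in HDC-M and -2.40, -2.27 and -2.60 in HDC-S pools. Both were below culture on every array, and only Trib3 had every HDC-S pool above all others. Chac1, which degrades glutathione, had an HDC-M mean of -2.84 ± 0.10 and Asns, asparagine synthetase, one of -2.08 ± 0.03. The other lists were mixed. Regulators of the response passed higher in 6 of 10 cases and lower in 0 (8 and 0 with median centring), Tmbim6, a suppressor of cell death in the ER membrane, at 0.93 and the NF-Y subunit Nfyb at 0.67. Further degradation genes passed lower in 6 and higher in 4 of 15 cases, but in 0 and 9 with median centring. The counts were 6 lower and 4 higher of 16 for ER oxidation genes (2 and 8 with median centring) and 9 and 4 of 16 for translocation and signal cleavage (0 and 10). They were 6 and 2 of 10 for oligosaccharyltransferase subunits (2 and 5) and 6 and 4 of 17 for ER export (0 and 13). Other FK506-binding proteins passed lower in 3 and higher in 6 of 12 cases (0 and 9).

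The contrast HDC-S minus HDC-A sets the highest histamine output against the lowest, and is the one in which Fkbp11 was picked. Fkbp11 read -1.87, -1.85 and -2.00 in HDC-A, -1.41, -1.40 and -1.16 in HDC-M and -0.82, -1.08 and -0.66 in HDC-S pools. HDC-A pools were lowest, HDC-S highest and HDC-M between, with no overlap between any of the groups. Its group means were -1.90 ± 0.08, -1.33 ± 0.14 and -0.85 ± 0.21 (SD, n = 3), so HDC-S exceeded HDC-A by 1.05 (SE 0.112), a 2.07-fold difference. Since the gene was chosen for it, this is a description without a test. The other Fkbp11 probe gave the same order with smaller steps, at means of -1.30, -0.98 and -0.86, and a difference of 0.45 between HDC-S and HDC-A.

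No other member passed in the direction of Fkbp11. Of the other 37 members 7 passed lower in HDC-S than in HDC-A and 0 passed higher (limma, adjusted p under 0.05), which with Fkbp11, chosen for its difference, makes 8 members. Over all probes 5.26% passed, 2.84% higher and 2.42% lower. At an unadjusted p under 0.05, 12 of the 37 were lower and 1, Manf, was higher. The median difference over all 38 was -0.0721, against 0.00446 over all probes. Groups did not overlap for 15 members (39.5%), 12 lower and 3 higher, and for 24.4% of all probes (11.1% lower). Above 0 were 12 of 38 members and 51.4% of all probes. The members that passed were Eif2ak3, Canx, Ssr1, Syvn1, Ssr3, Edem1 and Xbp1, which are a sensor, the factor downstream of IRE1, a lectin chaperone, subunits of the translocon-associated complex and degradation genes. No HSP70 chaperone or J-domain partner was among them.

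**Figure D2:**
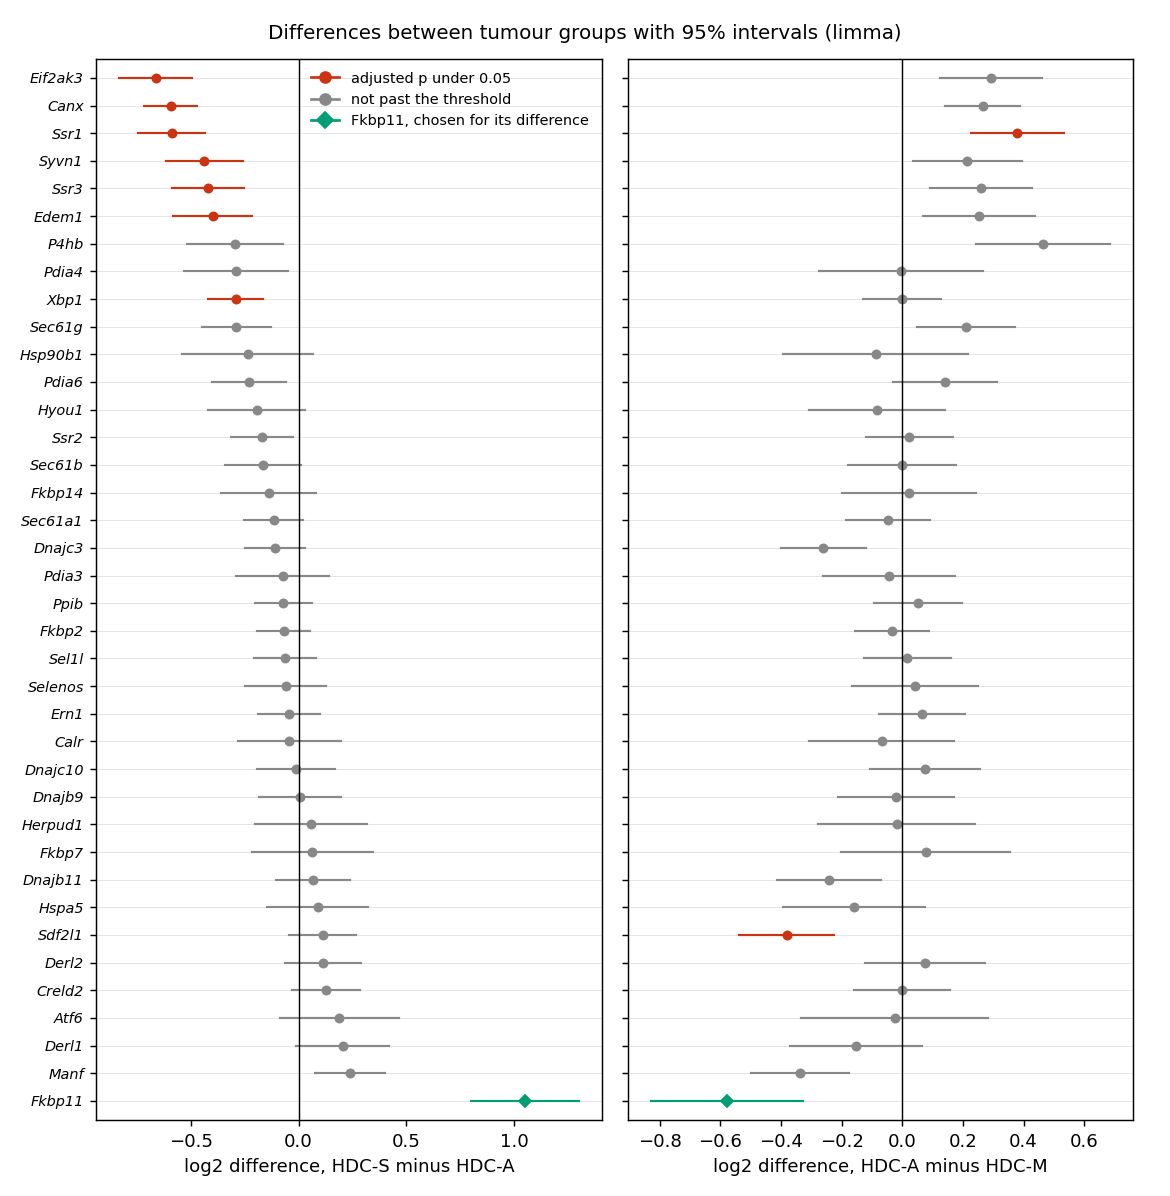
Log2 difference of each of the 38 genes (y axis) between HDC-S and HDC-A tumours (left) and between HDC-A and HDC-M tumours (right), with 95% intervals from limma over 9 arrays; red marks an adjusted p under 0.05, green Fkbp11. In the left panel Fkbp11 stands alone at 1.05 while the 7 red genes lie between -0.66 and -0.29.

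Canx, calnexin, read 0.36, 0.42 and 0.36 in HDC-A, 0.06, 0.15 and 0.13 in HDC-M and -0.18, -0.20 and -0.26 in HDC-S pools. The groups were apart, with HDC-A above, HDC-S below and HDC-M between, the reverse of the order of Fkbp11. HDC-S was 1.51-fold below HDC-A (log2 difference -0.59, SE 0.0549, limma adjusted p = 0.00234), and the 2 other Canx probes gave -0.58 and -0.47 and passed too (limma adjusted p = 0.00485 and 0.015). The translocon-associated protein Ssr1 read 0.20, 0.32 and 0.11 in HDC-A, -0.17, -0.20 and -0.14 in HDC-M and -0.45, -0.38 and -0.30 in HDC-S pools, with HDC-A pools above culture and the others below it. Its difference was -0.59 (SE 0.0685, limma adjusted p = 0.00475), but its other probe gave -0.20 and did not pass (limma adjusted p = 0.206). Ssr3, of the same complex, read 0.06, 0.16 and -0.12 in HDC-A, -0.25, -0.25 and -0.18 in HDC-M and -0.42, -0.34 and -0.41 in HDC-S pools and differed by -0.42 (limma adjusted p = 0.015), and both of its other probes passed, at -0.38 and -0.35 (limma adjusted p = 0.0221 and 0.0368). Ssr2, the remaining subunit among the members, was at -0.17 and did not pass.

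Eif2ak3, which encodes PERK, had the lowest difference of all members. It read 0.64, 0.73 and 0.45 in HDC-A, 0.27, 0.32 and 0.35 in HDC-M and 0.00, -0.07 and -0.09 in HDC-S pools, again with the 3 groups apart and HDC-A highest. HDC-S was 1.58-fold below HDC-A (log2 difference -0.66, 95% interval -0.83 to -0.49, limma adjusted p = 0.00424). Xbp1, the factor activated by IRE1, read -0.63, -0.55 and -0.68 in HDC-A, -0.66, -0.63 and -0.58 in HDC-M and -0.94, -0.92 and -0.88 in HDC-S pools. Here HDC-A and HDC-M pools lay together and the HDC-S pools below both, with a difference of -0.29 between HDC-S and HDC-A (limma adjusted p = 0.0221). Atf6 was at 0.19 and Ern1 at -0.04, and neither passed.

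The ubiquitin ligase gene Syvn1 read -0.94, -0.73 and -1.02 in HDC-A, -1.06, -1.14 and -1.13 in HDC-M and -1.39, -1.26 and -1.36 in HDC-S pools. HDC-S pools were lowest and HDC-A highest, without overlap, and HDC-S differed from HDC-A by -0.44 (limma adjusted p = 0.0164), while its other probe gave 0.05 and did not pass (limma adjusted p = 0.732). Edem1 read -0.78, -0.78 and -0.82 in HDC-A, -1.19, -1.10 and -0.86 in HDC-M and -1.21, -1.15 and -1.22 in HDC-S pools, with a difference of -0.40 (limma adjusted p = 0.0263), and its other 2 probes gave -0.31 and -0.06 without passing (limma adjusted p = 0.0853 and 0.702). The HDC-A pools of Edem1 lay above both other groups, which overlapped. The other 5 degradation genes ranged from -0.06 to 0.20 and did not pass.

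**Figure D3:**
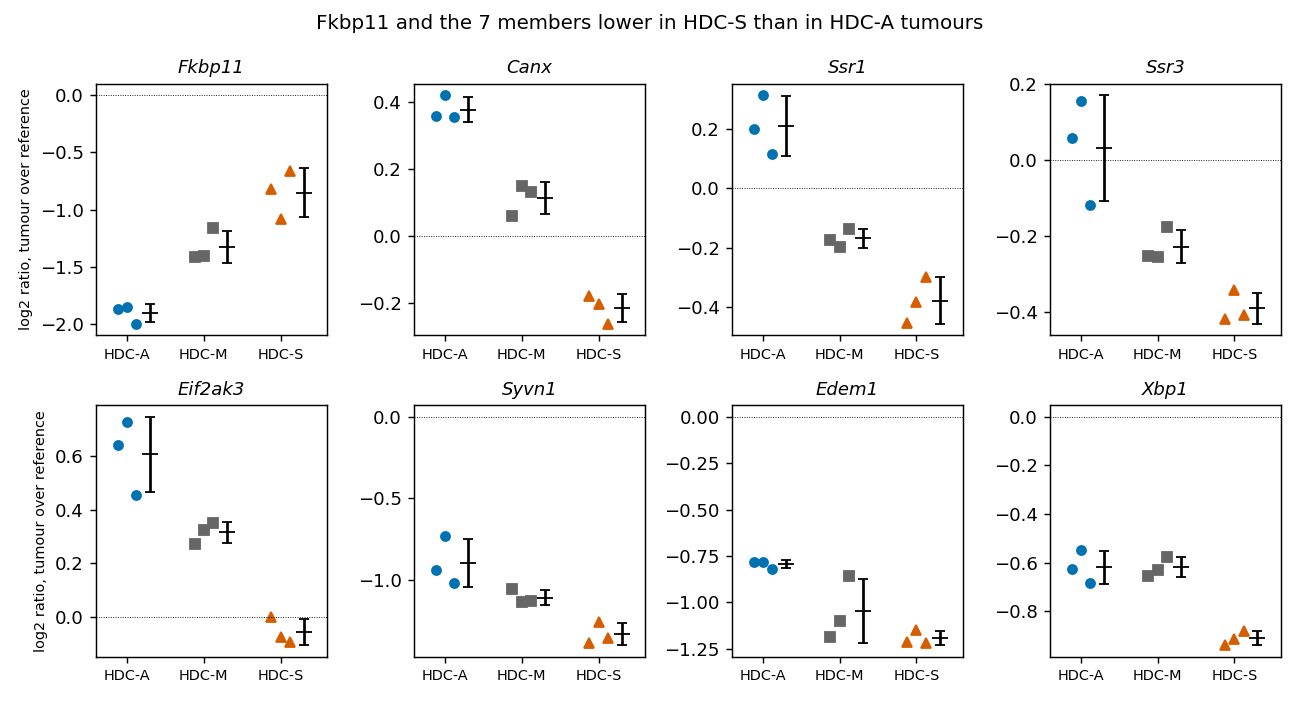
Log2 ratio of tumour over reference (y axis, own scale in each panel) for Fkbp11 and the 7 genes that passed lower in HDC-S than in HDC-A; points are arrays, and the bar beside them is the mean with the SD of 3 arrays. Fkbp11 climbs from a mean of -1.90 in HDC-A to -0.85 in HDC-S, whereas Canx falls from 0.38 to -0.22 and the HDC-S pools of Xbp1 lie below those of both other groups.

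Of the remaining roles, the HSP70 and HSP90 chaperones differed by a median of -0.01, from -0.24 (Hsp90b1) to 0.09 (Hspa5), and the small luminal factors by 0.11 to 0.24, the latter for Manf. Another Hsp90b1 probe gave -0.41 and passed (limma adjusted p = 0.0495), while a further one gave 0.15 and did not (limma adjusted p = 0.697). Hspa5 differed by 0.09 with a 95% interval of -0.15 to 0.32 and Herpud1 by 0.06 with one of -0.20 to 0.32. The prolyl isomerases other than Fkbp11 lay between -0.14 (Fkbp14) and 0.06 (Fkbp7). All 6 translocon genes and all 6 lectin chaperones and disulfide isomerases were below 0, with medians of -0.23 and -0.26, though only Ssr1, Ssr3 and Canx passed. None of the 26 members below 0 turned with median centring, scaling between arrays or the Cy5 channel alone. On the second scan day alone, however, 20 members lay above 0 and 18 below (9 and 29 on the first). Without HDC-A replicate 2 the counts were 15 and 23. The highest member after Fkbp11 was Manf at 0.24 (limma adjusted p = 0.0988).

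For all 8 members the HDC-S and HDC-A pools did not overlap. The direction of their difference within a scan day was therefore fixed beforehand, and only the sizes are described. On the first day (2 arrays a group) and the second (1 array a group) the difference was 0.91 and 1.33 for Fkbp11, -0.58 and -0.62 for Canx, -0.68 and -0.41 for Ssr1, -0.72 and -0.55 for Eif2ak3, -0.49 and -0.29 for Ssr3, -0.49 and -0.34 for Syvn1, -0.40 and -0.40 for Edem1, and -0.34 and -0.20 for Xbp1. No member passed on the first day alone (limma; 16 had an unadjusted p under 0.05), where 9 of all probes did, and the second day allows no test. The median over the 38 was -0.139 on the first day and 0.00328 on the second. Leaving out 1 array kept Canx, Ssr1 and Eif2ak3 past the threshold in 9 of 9 fits, Syvn1 in 7, Ssr3 in 6, Xbp1 in 4 and Edem1 in 3. The 4 members called without HDC-S replicate 1 or without HDC-S replicate 3, and the 5 called without HDC-A replicate 1, were among the 8. With median centring none of them passed (limma; 3 members had an unadjusted p under 0.05, and 4 of all probes passed) and none changed sign.

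Keratinocyte markers were also below 0 in this contrast. All 10 had lower means in HDC-S than in HDC-A, with a median of -1.34, and 0 passed (limma; 4 at an unadjusted p under 0.05). Their summed Cy5 signal was 2490 to 4420 in HDC-S, 5100 to 10600 in HDC-A and 11600 to 30000 in HDC-M pools. All 10 skeletal muscle markers were lower too, with a median of -0.937 and 0 passing (limma; 2 at an unadjusted p under 0.05), at 1430 to 9190 in HDC-S and 4250 to 21200 in HDC-A. Fibroblast markers were below 0 in 9 of 10 cases (median -0.377) and endothelial markers in 8 of 10 (median -0.177), without a call, and of the melanocyte markers Tyr, tyrosinase, passed lower (-0.48, limma adjusted p = 0.0121) while the list's median was 0.0364. The B and plasma cell list, whose cells are rich in ER, had 10 of 15 genes kept, differed by a median of -0.0187 and held 1090 to 1260 in HDC-S and 1120 to 1550 in HDC-A. Its genes ranged from -0.98 to 0.17, and 0 passed (limma; 2 at an unadjusted p under 0.05, both lower). Of its defining genes, Mzb1 was well above background in Cy5 on 9 arrays and Jchain on 7. The part of these cells in the differences was not tested.

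The PERK and ATF4 arm lay on the other side of 0 from Eif2ak3. Of its 13 genes, 13 lay above 0 for HDC-S minus HDC-A (12 with scaling between arrays or Cy5 alone), with a median of 0.399, and 6 passed: Asns, Trib3, Atf4, Chac1, Vldlr and Sesn2. Atf4, the transcription factor whose translation PERK and other kinases raise, read -1.74, -1.63 and -1.85 in HDC-A, -1.39, -1.59 and -1.37 in HDC-M and -1.18, -0.86 and -1.10 in HDC-S pools, so that the groups were apart and HDC-S was nearest to culture. HDC-S exceeded HDC-A by 0.69 for Atf4 (limma adjusted p = 0.00794). Asns, an ATF4 target, read -2.39, -2.63 and -2.56 in HDC-A, -2.05, -2.08 and -2.11 in HDC-M and -1.76, -1.62 and -1.67 in HDC-S pools and differed by 0.85 (limma adjusted p = 0.00234). Asns also stood in the order HDC-A, HDC-M, HDC-S without overlap. Trib3 differed by 0.84, Chac1 by 0.98, Vldlr by 0.96 and Sesn2 by 0.35 (limma adjusted p = 0.00765, 0.0171, 0.028 and 0.045), whereas Ddit3 was at 0.02. Atf4, Asns and Trib3 passed in 9 of 9 fits without 1 array, Chac1 in 8, Vldlr in 5 and Sesn2 in 1, and with median centring 13 of 13 were still above 0 but 0 passed. The arm also gave a call in each other contrast, Trib3 for HDC-S against HDC-M (0.65, limma adjusted p = 0.049) and Asns for HDC-A against HDC-M (-0.45, limma adjusted p = 0.0297). The call of Trib3 held in 0 and that of Asns in 3 of 9 fits without 1 array, and the sign of Asns turned in 1 refit, at 0.319.

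**Figure D4:**
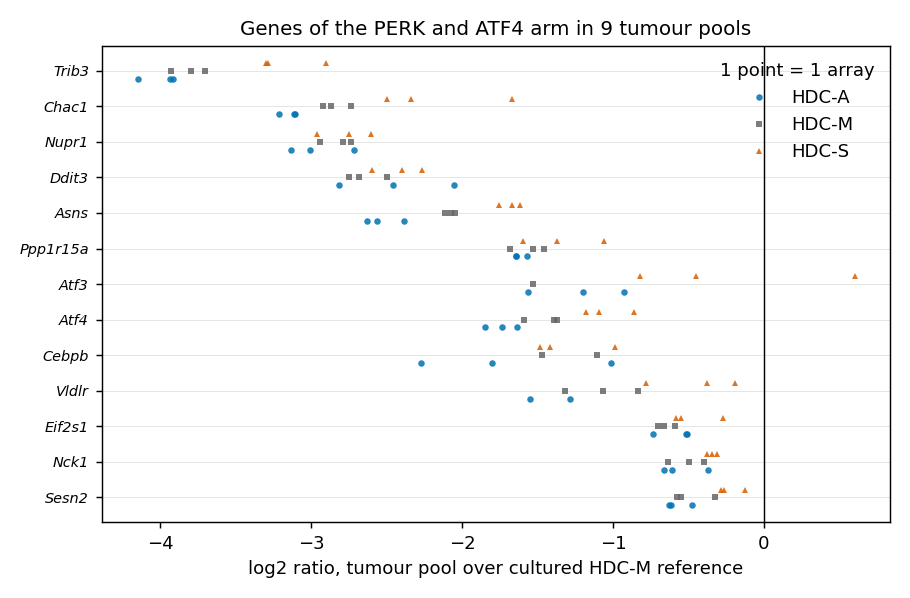
Log2 ratio of tumour pool over cultured reference (x axis) for the 13 genes of the PERK and ATF4 arm (y axis, ordered by the HDC-M mean), 1 point per array, 3 arrays per group. All HDC-M means are below 0, from -0.48 (Sesn2) to -3.81 (Trib3), 3 of them above 0 with median centring, and for Asns, Atf4 and Trib3 the HDC-S pools lie to the right of the HDC-A pools.

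Other ER lists gave few calls between HDC-S and HDC-A. Lower in HDC-S were the peroxiredoxin Prdx4 (-0.49), the isomerase Txndc5 (-0.44), the prolyl isomerase Fkbp9 (-0.46), the membrane-bound transcription factor Creb3l2 (-0.40), the oligosaccharyltransferase subunit Ddost (-0.29) and the signal recognition particle protein Srp9 (-0.27). Higher in HDC-S were another signal recognition particle protein, Srp68 (0.44), Fkbp8 (0.36) and the coat protein Sec24c (0.23). Their limma adjusted p ranged from 0.008 (Prdx4) to 0.0496 (Sec24c), and Prdx4 and Fkbp9 passed in 9 of 9 fits without 1 array, the others in 0 to 5. Txndc11, a thioredoxin-domain protein of the ER, was lower than HDC-M in HDC-S (-0.52, limma adjusted p = 0.0295) and in HDC-A (-0.38, limma adjusted p = 0.0465), calls that held in 4 and in 0 of 9 fits without 1 array. Prdx4 read 0.68, 0.88 and 0.83 in HDC-A, 0.54, 0.42 and 0.41 in HDC-M and 0.32, 0.24 and 0.36 in HDC-S pools, with the groups apart in the order HDC-A, HDC-M, HDC-S from high to low.

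The comparisons of HDC-S and of HDC-A with HDC-M asked on which side of the unmodified line the genes moved, and both share the HDC-M arrays. In HDC-S against HDC-M 2 of the 37 members other than Fkbp11 passed, both lower, where 0.681% of all probes passed, 0.242% lower. Fkbp11 was higher by 0.47, again given without a test. Dnajc3, an inhibitor of PERK and co-chaperone of BiP, read -0.67, -0.64 and -0.76 in HDC-A, -0.38, -0.45 and -0.46 in HDC-M and -0.87, -0.80 and -0.73 in HDC-S pools. Both modified lines lay below HDC-M without overlap, HDC-S by -0.37 (SE 0.0619, limma adjusted p = 0.0407) and HDC-A by -0.26, which did not pass (limma adjusted p = 0.0752). Its other 3 probes gave -0.42, -0.27 and -0.23 for HDC-S against HDC-M without passing (limma adjusted p = 0.0625, 0.252 and 0.255). Canx was lower by -0.33 (limma adjusted p = 0.0404), while its other 2 probes gave -0.27 and -0.26 without passing (limma adjusted p = 0.115 and 0.188). Of the 38, 28 were below 0 and 10 above, with a median of -0.107 against 0.00917 over all probes, where 53.2% of all probes were above 0. Groups did not overlap for 20 members (52.6%), 17 lower and 3 higher, and for 22.3% of all probes (10.4% lower). Scaling between arrays turned the median to 0.0596, with 13 members below 0, and median centring gave -0.587, with 36 below 0. Without Fkbp11, 13 of 37 were lower and 0 higher at an unadjusted p under 0.05 (limma). Within scan days Canx differed by -0.30 and -0.39 and Dnajc3 by -0.42 and -0.27. Each of these calls held in only 1 of 9 fits without 1 array. Keratinocyte markers had a median of -1.54 in this contrast (10 of 10 below 0) and macrophage markers one of 0.339 (12 of 12 above 0), and their part was not tested.

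In HDC-A against HDC-M 2 of the 37 members other than Fkbp11 passed, Sdf2l1 lower and Ssr1 higher, where 1.44% of all probes did. Sdf2l1 read -1.42, -1.40 and -1.48 in HDC-A, -1.18, -1.02 and -0.95 in HDC-M and -1.33, -1.36 and -1.27 in HDC-S pools. Every HDC-A and every HDC-S pool was below the HDC-M pools, HDC-A by -0.38 (limma adjusted p = 0.0374) and HDC-S by -0.27, which did not pass. Ssr1 was higher in HDC-A by 0.38 (limma adjusted p = 0.037) and turned to -0.05 with median centring, and its other probe gave 0.11 and did not pass (limma adjusted p = 0.572). Fkbp11 was lower by -0.58, a value given without a test. The median of the members was close to 0, at -0.000419, with 18 above and 20 below it (33 and 5 with scaling between arrays, which gave 0.195, and 2 and 36 with median centring, which gave -0.455), where 51.9% of all probes were above 0. Groups did not overlap for 14 members (36.8%), 9 higher and 5 lower, and for 20.9% of all probes (10.2% higher). P4hb (0.46) and Manf (-0.34) did not pass (limma adjusted p = 0.055 and 0.0561). Neither the call of Sdf2l1 nor that of Ssr1 held in any of 9 fits without 1 array. Markers of other cells were mostly above 0 in this contrast: 10 of 10 of skeletal muscle (median 0.976), 9 of 10 of fibroblasts (0.484), 11 of 12 of macrophages (0.338) and 9 of 10 of endothelium (0.175), whereas 9 of 10 keratinocyte markers were below 0 (-0.513). Their part was not tested. Within scan days Sdf2l1 differed by -0.31 and -0.53 and Ssr1 by 0.44 and 0.25.

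Over the 3 groups together, 8 of the 37 members other than Fkbp11 passed the F-test for any difference, where 4.65% of all probes did: Canx, Eif2ak3, Ssr1, Dnajc3, Xbp1, Ssr3, Sdf2l1 and Syvn1. The group means stood in the order HDC-S, HDC-M, HDC-A from low to high for 13 members, Canx, Ssr1, Eif2ak3 and Syvn1 among them. By the brightest probe, the order of Fkbp11, with HDC-A lowest and HDC-S highest, was shared by 4 others (Atf6, Creld2, Derl1 and Herpud1). Their neighbouring groups overlapped, and none of them passed in any of the 3 contrasts. The remaining probes of Derl1 and Atf6 gave the same order of means. Between HDC-S and HDC-A those of Derl1 differed by 0.30, 0.27 and 0.24, and that of Atf6 by 0.21. Every HDC-S pool lay above every HDC-A pool for these probes, but none passed (limma adjusted p = 0.058, 0.0541, 0.0807 and 0.1045). For the Derl1 probe at 0.27 all 3 groups were apart.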

How the data were processed

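RNA of 9 tumour pools was hybridised in Cy5, and of cultured HDC-M cells in Cy3, to 2-colour Agilent arrays, per the labels. The deposited intensity values are mean spot brightness and median local background from Feature Extraction 8.5.1.1, per the file headers. The deposited log10 ratios of that software, and the authors' value table, whose values equalled them, served as alternatives. Spot flags and other fields were used as deposited; genome build and probe design are not given in the sources used here.

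Background was corrected with normexp (offset 50) and dyes by loess in limma 3.58.1 (R 4.3.3); control and outlier spots had weight 0 and spots of a probe were averaged. Probes well above background in Cy5 on at least 3 of 9 arrays were kept (26871 of 41174). Probes were named through RefSeq accessions; 37 members matched by accession and Atf6 by its product name. All 9 arrays entered 1 model (lmFit, eBayes); Benjamini-Hochberg adjustment ran over all probes, with a threshold of 0.05. For 5 members 1 HDC-M outlier spot was left out (Pdia4, Atf6, Selenos, Derl2, Ppib). The test was tested on simulated data. Replicates are pools of different tumours, and the number of arrays limits precision. Any member could be named, with values per array for Fkbp11, members past a threshold between groups and the 5 highest and 5 lowest over culture; of the other lists, genes past a threshold in a contrast. Ddit3, Tmbim6, Nfyb, the marker genes and the genes of the last section were named after their values were seen. Members and lists were chosen with earlier results of these data known. Besides leaving out each array, 18 alternatives were tried (effects in the closing section); the comparison with bright probes and the counts of lists under other scalings were added after seeing the data.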

Additional observations from a re-analysis of the deposited data

Results flagged for a closer look

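By the brightest probe, the tumour groups lay on opposite sides of the cultured reference for 2 genes, with every pool of 1 group above it and every pool of the other below. For Canx the mean log2 ratios of HDC-A and HDC-S were 0.38 and -0.22 (0.59 apart), and those of HDC-M and HDC-S were 0.11 and -0.22 (0.33 apart). For Ssr1 those of HDC-A and HDC-M were 0.21 and -0.17 (0.38 apart), and those of HDC-A and HDC-S were 0.21 and -0.38 (0.59 apart). The differences between the groups themselves passed in limma, with adjusted p of 0.00234 and 0.0404 for Canx and of 0.037 and 0.00475 for Ssr1. The side of 0 depends on the scaling: with median centring the HDC-M means were 0.924 for Canx and 0.632 for Ssr1. It also depends on the probe: the other Ssr1 probe had means of 0.03 in HDC-A and -0.08 in HDC-M with overlapping pools, 1 other Canx probe had an HDC-A mean of -0.04 and another an HDC-M mean of -0.0051. Groups of 3 arrays were not searched for outlying arrays.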

How the results depend on the processing

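Each group is 3 pools of 1 line, and against culture there is 1 reference RNA and 1 dye orientation. With median centring the median of members was 0.0528 over culture, -0.587 for HDC-S against HDC-M and -0.455 for HDC-A against HDC-M; 21 members passed over culture, 13 higher and 8 lower (18 of them among the 35, of which Sec61a1, Ssr1, Ssr2, Ssr3 and Fkbp2 changed from lower to higher) and 0 in the 3 group contrasts and the F-test. It turned Hsp90b1 (0.0605), Dnajb11 (0.0033), Dnajc3 (0.36), Dnajc10 (0.19), Xbp1 (0.0598), Fkbp2 (0.61), Sec61a1 (0.55), Sec61b (0.11), Ssr1 (0.63), Ssr2 (0.63), Ssr3 (0.58), Derl2 (0.30) and Selenos (0.05) over culture and Ssr1 to -0.0454 for HDC-A against HDC-M; the median over probes turned Canx to -0.0051. The cause was not tested. Medians over culture were -0.857 with the scanner's log ratio, -0.837 with the value table, -0.895 with scaling between arrays and -0.639 with the median over probes. For HDC-S against HDC-A they were -0.166 with Cy5 alone, -0.139 on the first and 0.00328 on the second scan day, and for HDC-S against HDC-M 0.0596 with scaling between arrays. For HDC-A against HDC-M, where the median was -0.000419, it was 0.0219 without background correction, 0.0238 with subtraction, 0.0296 with the scanner's ratio, 0.00976 with the value table, 0.195 with scaling, 0.0474 with Cy5 alone, 0.00837 with either block, 0.052 on the first and -0.0644 on the second scan day. Of members, 8 passed for HDC-S against HDC-A, but 4 with the scanner's ratio or the value table, 2 with scaling, 5 with Cy5 alone and 0 on the first day. For HDC-S against HDC-M (2), 1 passed with subtraction, 5 with array weights and 0 with the scanner's ratio, the value table, scaling, Cy5 alone, either block, the first day and only the groups compared. For HDC-A against HDC-M (3), 1 passed with Cy5 alone, 5 with the filter on all 9 arrays, 7 with array weights and 0 with the same other settings. In the F-test (9), 3 passed with the scanner's ratio or the value table, 2 with scaling, 4 with Cy5 alone, 4 with the replicate block and 0 on the first day. The remaining alternatives, among them Aquantile, no filter and outlier spots kept, left these counts within 1.5 times.

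Of all probes, 1412 passed for HDC-S against HDC-A, but 392 with the scanner's ratio, 416 with the value table, 4 with median centring, 158 with scaling, 632 with Cy5 alone, 9 on the first day and 740 with only the groups compared. For HDC-S against HDC-M (183) the counts were 315 without background correction, 7, 7, 5, 37 and 13 with the scanner's ratio, value table, median centring, scaling and Cy5 alone, 719 with array weights, 70 and 85 with the replicate and scan day blocks, 30 on the first day and 12 with only the groups compared. For HDC-A against HDC-M (387) they were 18, 16, 2 and 50 with the scanner's ratio, value table, median centring and scaling, 648 with array weights, 187 and 189 with the blocks, 5 on the first day and 86 with only the groups compared. In the F-test (1249) they were 102, 105, 5, 140 and 515 with the scanner's ratio, value table, median centring, scaling and Cy5 alone, 2136 with array weights, 693 with the replicate block and 6 on the first day.

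Leaving out 1 array gave 0 to 2 members for HDC-S against HDC-M, 0 to 1 for HDC-A against HDC-M, 4 to 8 for HDC-S against HDC-A, 4 to 8 in the F-test and 32 to 35 over culture, with medians of -0.123 to -0.0793, -0.0259 to 0.046, -0.111 to -0.064 and, over culture, -0.727 to -0.716. Replicate numbers did not pair the arrays: of 9 same-numbered pairs, 4 had deviations that correlated over 0.1 (-0.187 to 0.548), and 3 arrays correlated best with their own number. With the replicate block 8 members passed for HDC-S against HDC-A and 0 in the other 2 contrasts. The second scan day alone gives no test, Cy5 alone no value over culture, and the F-test cannot be had with only the groups compared.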

Other observations

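Besides the members, 17 measured genes had an ERSE or ERSE-II in the promoter window. In HDC-M tumours 6 of them passed lower than culture (limma). They were Krtcap2, an oligosaccharyltransferase subunit, at -1.55, the ER oxidase Ero1b at -1.12 and Xlr3c at -0.70. The calcium-binding Nucb1 stood at -0.68, the mannosyltransferase Alg12 at -0.65 and Lgalsl at -0.51. Another 4 passed higher, from 0.25 (Spats2l) to 0.56 (Hnrnpa3), and the median over the 17 was 0.00667. Over all probes 57.9% passed, 23.9% lower and 34% higher, so these 17 were called at about the general rate. The calls are those of the loess scaling. Derl3, a degradation gene of secretory cells, was at 0.04. Their differences between groups lay between -0.306 and 0.267.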
